A study of Mus musculus with 26 samples.

Results

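Between the annotated genes of the mouse genome lie regions from which long noncoding RNAs are transcribed, and the array used here carries probes designed for such regions that are named by position only. Their overlap with annotated genes, exons or repeats was not looked up here, so a level is that of the probe, whatever transcript binds it. Of 15568 such probes on chromosomes 1 to 19, 9232 (59.3%) gave a signal well above background in microglia, on 3 or more arrays of at least 1 of the 8 groups of the study. The probes were thus chosen by that flag, which the scanner software sets for each spot, so their detection is a description and was not tested. The 9232 detected probes carry 3710 names, each a chromosome, a start, an end and a strand letter (F or R), and cover 2846 of the 3387 designed regions. They are part of 34773 probes that met the same rule. The other 25541 are probes for genes and for other transcripts, with any region probes on chromosome X or without a strand letter.

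Microglia were sorted as EGFP-positive cells of C57BL/6 mice, taken from nucleus accumbens (NAc) or from medial prefrontal cortex (mPFC), and their RNA was read on 26 single-colour Agilent arrays, 1 per sample. All mice carried the CX3CR1EGFP/+ allele, which puts the green fluorescent protein into 1 copy of the Cx3cr1 gene, so the control mice are themselves heterozygous for Cx3cr1. Mice were wild type otherwise (WT) or TLR-DKO, called DKO here, a double knockout of Toll-like receptors. R-SDS stands for repeated social defeat stress, a series of encounters with an aggressor, while naive mice were moved between cages, and tissue was taken 1.5 h after the last session. The 8 groups are WT mPFC naive, WT mPFC R-SDS, DKO mPFC R-SDS, WT NAc naive, WT NAc R-SDS and DKO NAc naive with 3 arrays each, and DKO mPFC naive and DKO NAc R-SDS with 4 arrays each. The labels call the stressed WT mice susceptible and the stressed DKO mice resilient, so phenotype and genotype cannot be told apart among stressed mice. Every sample pooled cells of 3 to 6 mice, and the labels name 2 independent experiments without saying which samples belong to each. Ages are not given in the sources used here.

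Long intergenic noncoding RNAs are transcripts that hold no long open reading frame and do not overlap a protein-coding gene. Many are spliced and carry a poly(A) tail like messenger RNAs, many are made in few cell types and at low levels, and several act in the nucleus on chromatin or on the splicing of other transcripts. Other transcripts from such regions are unspliced or short-lived products of enhancers and promoters. In microglia and macrophages, long noncoding RNAs are known among the genes that answer signals from Toll-like receptors. The files hold no probe sequences, so none is shown here, and positions are those of genome build mm9, as the probe names and file headers give them. Levels below are log2 signals minus the 75th percentile of the same array. A level of 0 is therefore as bright as that percentile, and levels of different probes are brightnesses that also depend on the probe.

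The arrays were of a like kind but not of equal brightness. The 75th percentile of the signal ran from 80.7 to 341 intensity units, and no spot was saturated. Microglial markers were bright on all arrays, with a median level of 6.23 over Cx3cr1, P2ry12, Tmem119, Csf1r, Aif1, Siglech and Fcrls. The probe of Tlr2 was lower in DKO, with a log2 difference of -5.73 (limma, adjusted p = 1.490e-13), with group means between 1.37 and 1.93 in WT and between -4.23 and -3.77 in DKO. The probe of Tlr4 differed by 0.19 (adjusted p = 0.894), and since its place relative to the deleted part is unknown here it checks nothing. Over the detected region probes, arrays of one group correlated with r of 0.727 to 0.888, with a median of 0.82, against a median of 0.811 between groups. WT mPFC R-SDS replicate 3 and DKO mPFC naive replicate 1 stood apart, with mean correlations to the other arrays of 0.721 and 0.768. The arrays lie on 4 slides, of which 2 hold only mPFC and 2 only NAc samples, and were scanned on 2 days. The second principal component of the region probes (9.84% of the variance) had all 13 arrays of one day above 0 and all 13 of the other day below 0.

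On every one of the 26 arrays the region probes were detected less often than the other probes. The share of region spots well above background ran from 45.1% to 69.2% with a median of 55.1%, and that of the other non-control spots from 51.3% to 71.6% with a median of 60.4%. The gap was 2.44 to 7.45 percentage points. Of the 308 negative control spots of an array, 0% to 1.62% were well above background. mPFC and NAc arrays were alike here, with medians of 55.3% and 54.9% for region spots.

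**Figure D1:**
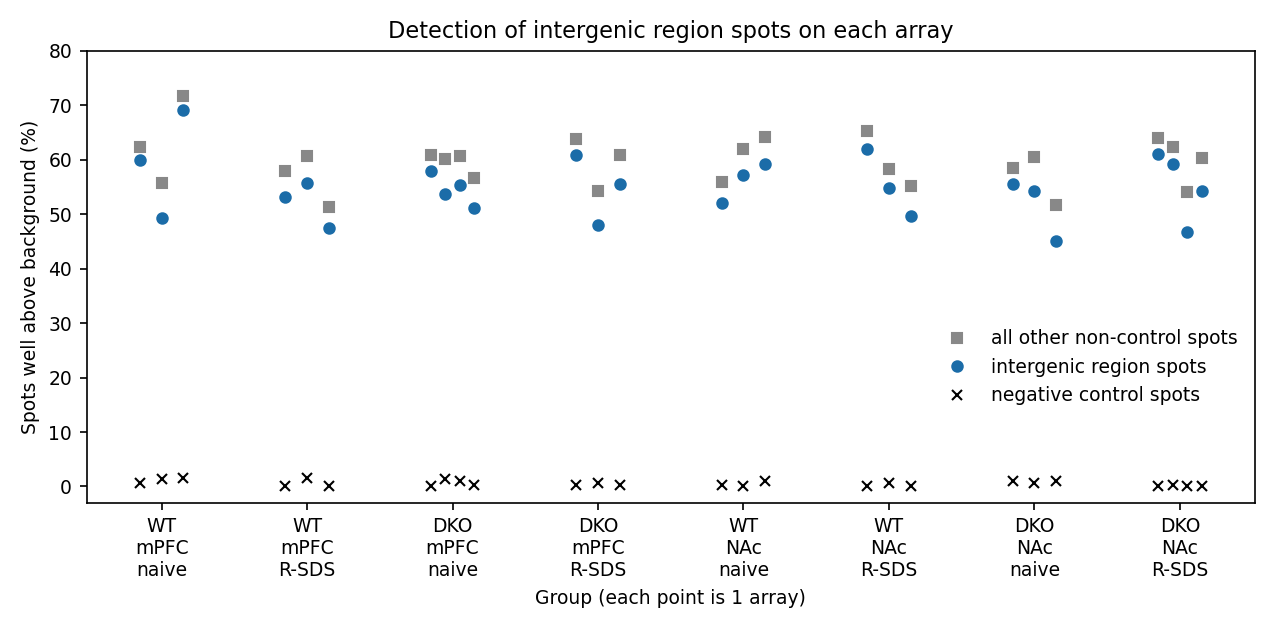
Share of spots well above background (%) on each of the 26 arrays, by group, for intergenic region spots (blue circles), all other non-control spots (grey squares) and the 308 negative control spots (crosses). The blue circle lies under the grey square of the same array on all 26 arrays, and the crosses stay at or below 1.62%.

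Detection differed more by the length of the region than by its strand. Probes on the F strand met the rule in 59.6% of cases (4691 of 7873) and probes on the R strand in 59.0% (4541 of 7695). Of the probes for regions under 1 kb, 50.6% were detected (1198 of 2369), and 51.5% for regions of 1 to 5 kb (703 of 1366). For regions of 5 to 20 kb the share was 62.6% (3806 of 6084), and for regions of 20 kb or more 61.3% (3525 of 5749). By chromosome the share ran from 51.7% on chromosome 10 (370 of 716) to 67.3% on chromosome 17 (604 of 897), with 53.0% on chromosome 9 and 64.9% on chromosome 11. Since many probes belong to the same region and may bind the same transcripts, these counts are not of independent items. The median detected probe belonged to a region of 14101 bp.

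**Figure D2:**
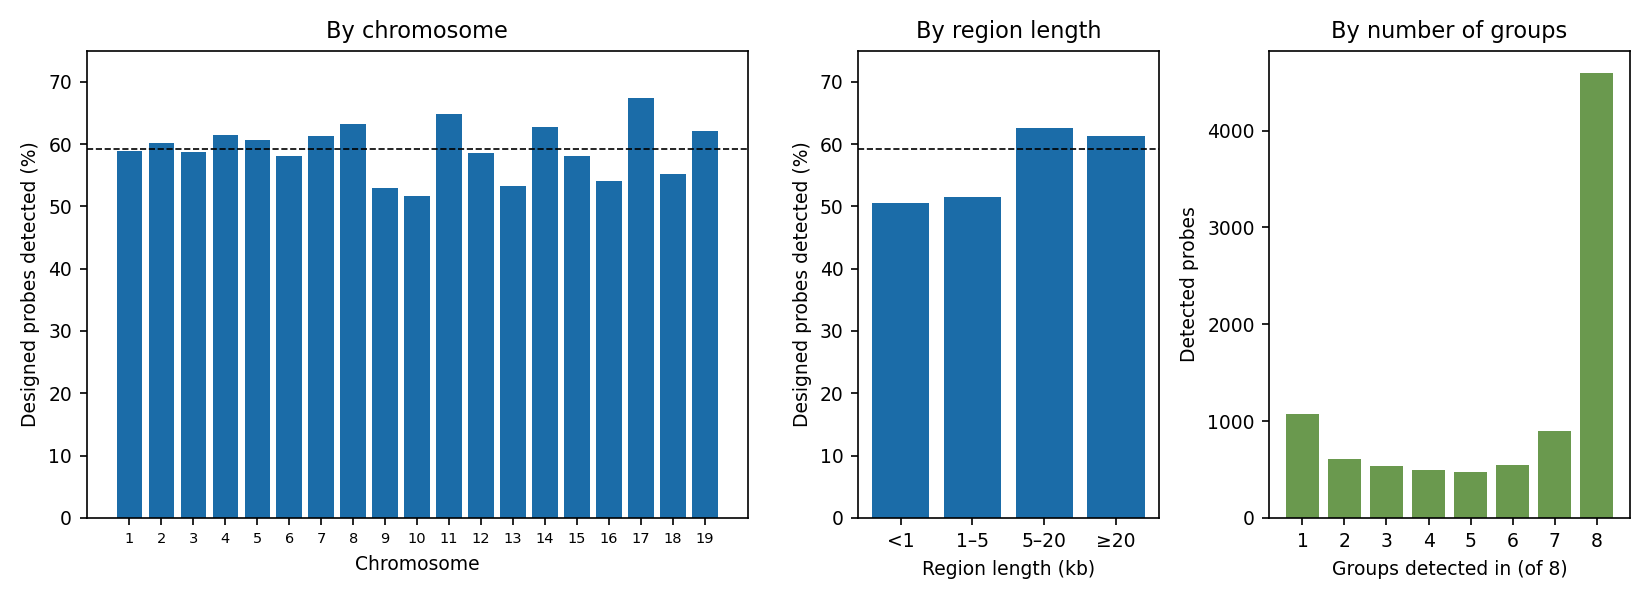
Left and middle, percent of the designed region probes that were detected, by chromosome and by length of the region; the dashed line is the 59.3% over all 15568 probes. Right, number of detected probes by the number of groups in which 3 or more arrays were above background, with 4594 probes in all 8 groups and 1075 in a single group.

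The span of region lengths was wide. The longest region with a detected probe is chr5:99726262-100264512 on the R strand, 538251 bp. Its probe A_30_P01021180 had levels from -2.86 to 0.60 on the mPFC arrays (median -1.07) and from -2.34 to -0.84 on the NAc arrays (median -1.35), and was detected on 25 of 26 arrays. The shortest is chr5:113771679-113771745 on the F strand, 67 bp. Its probe A_30_P01017704 was detected on all 26 arrays, with levels from -0.80 to 1.12 in mPFC (median 0.01) and from -0.67 to 1.50 in NAc (median 0.50). The brain regions overlapped for both probes.

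Many of the detected probes were found everywhere. Of the 9232, 4594 (49.8%) were detected in all 8 groups and 4417 on all 26 arrays. A further 1075 probes met the rule in a single group, and between 475 and 900 in each number of groups from 2 to 7. The number detected per group was 6961 in WT mPFC naive, 5922 in WT mPFC R-SDS and 6540 in DKO mPFC R-SDS. It was 6896 in WT NAc naive, 6682 in WT NAc R-SDS and 6096 in DKO NAc naive. The groups of 4 arrays, in which 3 of 4 suffice, had 7668 (DKO mPFC naive) and 7841 (DKO NAc R-SDS). The groups of 4 thus had the highest counts, and 346 and 297 probes met the rule in that group alone, against 33 to 156 for each group of 3. Array brightness differed too. WT mPFC naive holds the brightest array (75th percentile 341) and WT mPFC R-SDS the dimmest (80.7). On these arrays 69.2% and 47.5% of region spots, and 71.6% and 51.3% of other spots, were above background. The part of brightness in these counts was not tested. Such counts for the other probes are not given here. If every array of a group had to be above background, 8696 probes would remain, and 536 passed through 3 of 4 arrays alone. Just inside the threshold lie 2048 probes whose best group held exactly 3 such arrays, with a median level of -3.25. Just outside lie 1855 probes whose best group held exactly 2, with a median level of -4.09.

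For the 1075 probes that met the rule in a single group, 1 example per group is given. For each group the probe with the largest gap to the other groups is given, all chosen for that gap and so not tested. A_30_P01032659 (chr17:6806500-6861042, F) read -2.02, 1.01 and 0.42 in WT mPFC naive, and -6.05 to -1.89 on the other 23 arrays, of which 3 were above background. A_30_P01029311 (chr5:53931541-53945241, F) read 3.58, -3.20 and 1.96 in WT mPFC R-SDS, and at most -1.36 elsewhere. Here 1 of the 3 arrays of the group itself lay within the range of the others.

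A_30_P01021091 (chr8:87504644-87513694, F) read -0.56, 1.87 and -1.13 in WT NAc naive and at most -1.93 elsewhere, so that its groups did not overlap. A_30_P01027709 (chr3:96074625-96086375, F) read -3.12, 2.14 and -0.55 in DKO mPFC R-SDS, but 1.78 on 1 array of DKO NAc R-SDS. A_30_P01030482 (chr9:113648970-113715170, R) read 0.92, 0.69 and 0.52 in DKO NAc naive, while single arrays of WT NAc R-SDS and DKO NAc R-SDS reached 0.78 and 0.89. The probes for the remaining groups overlapped the others too. A_30_P01020762 (chr4:116790373-116797823, F) read -0.95, 1.36 and -2.005 in WT NAc R-SDS, with 1.67 and 1.43 on arrays of WT NAc naive and DKO NAc naive. A_30_P01030274 (chr1:183783306-183834531, F) read 0.02, -0.40, 1.99 and 1.12 in DKO NAc R-SDS, with 1.55 on an array of WT mPFC naive. A_30_P01031532 on chromosome 18 read -1.66, 3.01, -1.90 and 4.54 in DKO mPFC naive, with 1.70 on an array of DKO NAc naive.

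Most detected region probes were dim. The median level was -1.46, and 27.1% of the probes (2505) had a mean above 0, against 39.8% of the other probes that met the rule. Probes detected in all 8 groups had a median level of 0.04, and those in fewer groups -2.70. The spread between arrays of one group followed the level. Its median SD was 0.55 for the probes detected in all 8 groups, 1.09 for those in fewer, 0.77 over all 9232 and 0.84 for the other probes. Means above 5 were reached by 154 probes.

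The 10 brightest probes were detected on all 26 arrays. A_30_P01020800 on chromosome 18 (F strand) ran from 8.39 to 10.3 in mPFC (median 9.03) and from 8.85 to 9.62 in NAc (median 9.17). At chr17:39960567-39992817, 1 probe for each strand was among the 10: A_30_P01018010 (R) with a mean of 9.08 and A_30_P01023888 (F) with 8.41. At chr7:108209996-108216032, both F-strand probes were, A_30_P01031375 with 8.89 and A_30_P01019201 with 8.84. Their levels followed each other closely, from 7.83 and 7.87 at the lowest array to 10.2 and 10.1 at the highest. The others were A_30_P01020464 (chr5:52461266-52541416, R) at 8.71, A_30_P01025521 (chr6:92040526-92041319, F) at 8.68 and A_30_P01031754 (chr19:5801802-5802597, R) at 8.60. A_30_P01032773 (chr1:182686731-182709331, F) had a mean of 8.28 and A_30_P01017943 (chr5:105072936-105074001, F) of 8.26. For all 10 the highest value was on WT mPFC R-SDS replicate 3, one of the arrays that stood apart, and the mPFC and NAc values overlapped.

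A region was often represented by several probes that did not behave alike. Among 3766 names with at least 2 probes, every probe was detected for 999, some for 2282 and none for 485. A count of 10 detected probes, the highest, was reached by 32 names, of which the first 5 by name are given. At chr10:126818382-126856582 (F), the 10 probes ran from a mean of -4.16 to 6.47, with 7 detected in all 8 groups. At chr10:5950116-5958250 (F) they ran from -3.94 to -0.28, and only 1 was detected in all 8 groups. At chr10:66559716-66647841 (R) they ran from -4.00 to 4.10, at chr11:3538125-3554450 (F) from -1.21 to 4.78 and at chr11:95627874-95640824 (F) from -0.45 to 5.44, with 6 each in all 8 groups. These are ranges of brightness over probes with different sequences.

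Most regions with probes for both strands had a detected probe on each. Probes for both strands exist for 1042 regions. Both had a detected probe in 864 (82.9%), only F in 82 (7.87%), only R in 65 (6.24%) and neither in 31 (2.98%). Each strand by itself was detected in most regions. Whether both were detected more often than their separate rates would give was not tested. The RNA was amplified to cDNA and labelled as DNA, and the labels do not say whether its strand was kept, so whether F and R signals come from separate transcripts was not tested. The 5 brightest regions with both strands include the chr17 and chr7 regions named above. At chr12:119825125-119850750 the F probe had a mean of 4.86 and the R probe 6.54, and at chr11:19778600-19815950 they had 4.26 and 5.44. At chr4:141527564-141547339 the F probe had 7.33 and the R probe 2.04. All probes of these 5 regions were detected on all 26 arrays.

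Across the 26 arrays, probes of one region moved together only loosely. For names with 2 or more probes detected in all 8 groups, the Pearson r between same-strand probes had a median of 0.29 over 1143 names, and 26.6% of them exceeded 0.5. For probes on opposite strands of a region the median was 0.25 over 548 regions, with 18.2% over 0.5. For a probe and one of the next region along the chromosome it was 0.13 over 1570 pairs, with 5.16% over 0.5. These are descriptions, since all pairs share the same arrays and their differences in depth. In addition, 2015 of the 3387 designed regions overlap another one, and 6087 detected probes lie in such regions.

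Only the averaged comparison of the brain regions had region probes past the threshold, and there brain region and slide cannot be told apart. Averaged over genotype and condition, 90 of the 9232 probes (0.975%) passed an adjusted p of 0.05 between NAc and mPFC with limma, 85 lower and 5 higher in NAc. Over all 34773 probes tested the share was 0.762% (265 probes), 0.702% for lower and 0.0604% for higher, so the region probes lie near that background. The lower probes differed by -1.73 to -0.59 on the log2 scale with a median of -0.94. All 85 were lower, and all 5 higher, within each of the 4 combinations of genotype and condition and on each of the 2 scan days, an evenness that choosing them by p favours. The median of the 85 was -0.72 on day 1 and -1.14 on day 2, against -0.06 and -0.09 over all probes. The 90 probes carry 87 names and were dim, with a median level of -2.39. Of them 39 were detected in all 8 groups and 51 in fewer, and the latter entered the test partly through the groups in which they were bright. They lay on all 19 chromosomes, from 1 of 639 detected probes on chromosome 4 (0.157%) to 10 of 389 on chromosome 9 (2.57%). On the F strand 46 of 4691 were called and on the R strand 44 of 4541. Whether the chromosomes differ was not tested.

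This count depends on how the slides are treated. mPFC and NAc samples never shared a slide, so a difference between brain regions is also one between slides. Slide was therefore also fitted as a random block, with an estimated correlation of 0.125 between arrays of a slide. No probe of any kind then passed. Among the region probes the lowest adjusted p was 0.154, and the median of the 90 was 0.483. Before adjustment, each of the 90 had a p under 0.05 in this fit. They were chosen by p on the same arrays, which favours this, so it is no separate support. The count was also 0 within scan day 1 alone and within scan day 2 alone, where 13 arrays are left.

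The 10 region probes with the smallest p between NAc and mPFC were all lower in NAc. A_30_P01022580 (chr16:22718344-22725594, R) ran from -3.82 to -2.07 in mPFC (median -2.87, above background on 12 of 13 arrays). In NAc it ran from -5.78 to -3.66 (median -4.36), above background on 1 of 13. The difference was -1.42 ± 0.19 (SE), with an adjusted p of 0.00216, and the brain regions overlapped only between -3.82 and -3.66. Since nearly all NAc values are at background, the size of this difference is uncertain.

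A_30_P01027929 (chr2:145501249-145508811, F) was above background on all 26 arrays. It ran from -1.33 to -0.39 in mPFC (median -0.80) and from -2.56 to -1.27 in NAc (median -1.84), a narrow overlap, and differed by -1.03 ± 0.17 (SE). A_30_P01024524 (chr7:151085617-151100071, F) ran from -1.95 to -0.76 in mPFC and from -3.99 to -2.15 in NAc, with no overlap, and differed by -1.15 ± 0.19. Another probe for the same strand of that region, A_30_P01030352, was higher in NAc by 0.53 (adjusted p = 0.0808). A_30_P01020244 (chr12:73838608-73862621, R) ran from -0.96 to -0.20 in mPFC and from -1.72 to -0.85 in NAc, again with a narrow overlap, and differed by -0.83 ± 0.14.

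A_30_P01025183 (chr13:60508775-60534625, F) and A_30_P01025291 (chr16:94055900-94120575, R), detected on all arrays, differed by -0.996 and -0.98. Their medians fell from -0.71 in mPFC to -1.66 in NAc and from -0.43 to -1.49. A_30_P01028058 (chr9:66825889-66853614, F) differed by -1.24 and A_30_P01030065 (chr1:39739048-39740125, F) by -0.87, with 11 and 10 of the 13 NAc arrays above background. A_30_P01031638 (chr13:70815593-70820844, R) differed by -1.48 and A_30_P01019208 (chr16:4592919-4594230, R) by -1.32, with only 5 and 7 NAc arrays above background. Adjusted p-values of these 10 probes lay between 0.00216 and 0.0165 with limma.

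The 5 region probes that were higher in NAc are named after their values were seen. A_30_P01029551 (chr15:61984389-62102500, F) differed by 3.06 ± 0.62 (SE), with an adjusted p of 0.0303. It was above background on all 13 NAc arrays, where it ran from -2.99 to 0.25 (median -1.48). Of the 13 mPFC arrays only 4 were above background, with a range of -6.20 to -0.71 and a median of -5.73. The mPFC values thus fell into a bright and a dim set, and since most are at background, the size of this difference is uncertain. A second probe of the same name and strand, A_30_P01030282, was called in the opposite direction, at -1.27 ± 0.25 (adjusted p = 0.0276), with 10 mPFC and 3 NAc arrays above background. This was the 1 name with calls in both directions, and the adjusted p of its 4 other detected probes lay at 0.463 or above. A_30_P01025348 (chr2:129416848-129417413, R), detected on all arrays, had a median of -1.16 in mPFC and 0.87 in NAc, with overlapping ranges, and differed by 1.90 ± 0.37.

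A_30_P01022189 (chr9:96964067-96973567, F) was above background on 1 mPFC and 7 NAc arrays and differed by 1.78 ± 0.35. It met the rule in 1 group only, an NAc group, and so entered the test through the side where it was bright. Nearly all its mPFC values are at background (median -5.36), so the size of this difference is uncertain. A_30_P01017790 (chr1:163508244-163586072, R) and A_30_P01023865 (chr6:31017987-31174287, F) differed by 1.33 and 1.43, each with 11 mPFC and 13 NAc arrays above background. Adjusted p-values of these 5 lay between 0.0276 and 0.0431.

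**Figure D3:**
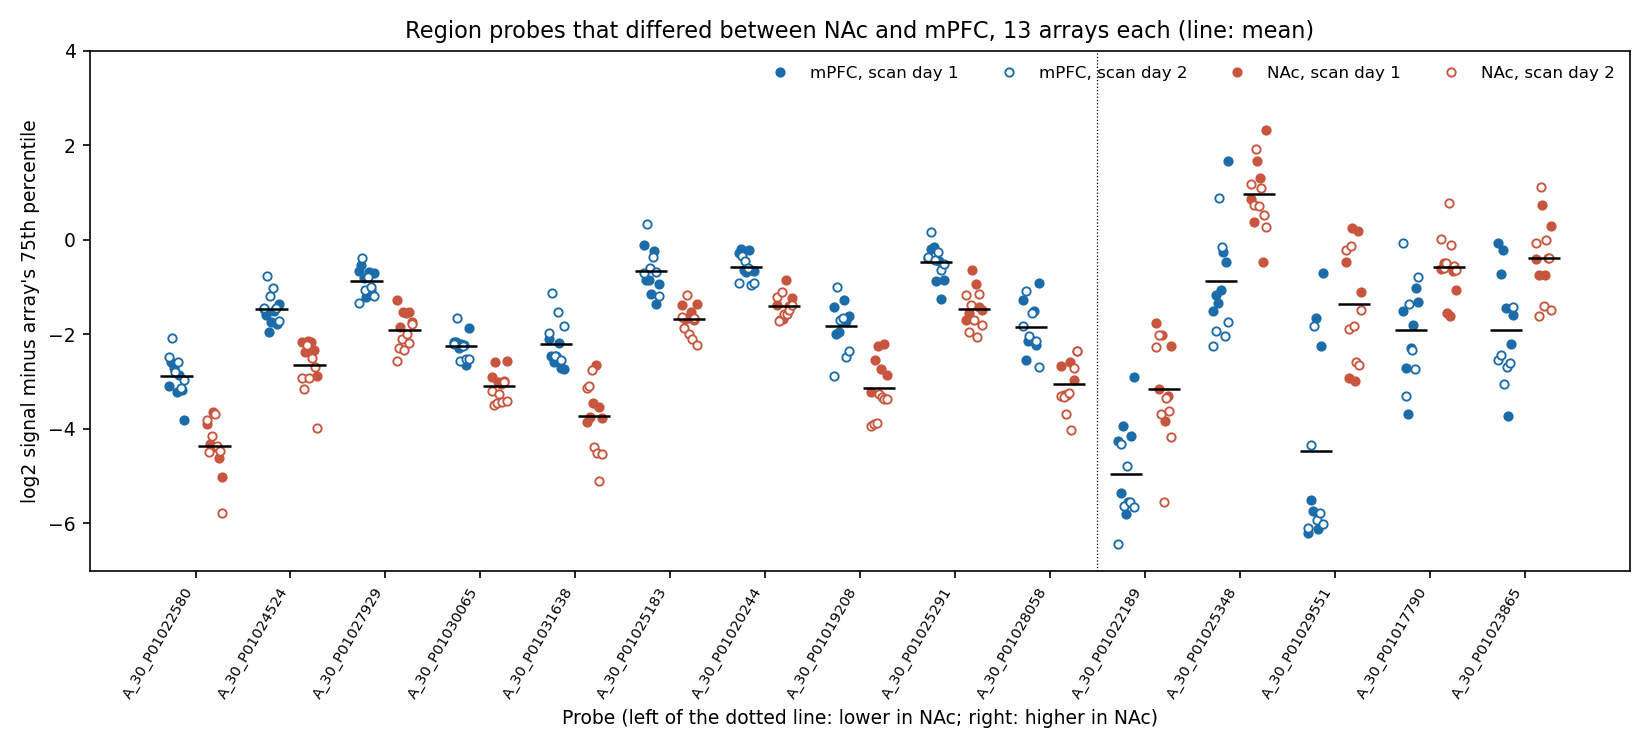
Levels (log2, relative to each array's 75th percentile) of the 10 region probes with the smallest p between NAc and mPFC, all lower in NAc, and, right of the dotted line, of the 5 that were higher in NAc. Each point is 1 of 13 mPFC (blue) or 13 NAc (red) arrays, filled for scan day 1 and open for scan day 2, and black lines are means. A_30_P01024524 shows no overlap between the brain regions, and A_30_P01029551 has 4 bright and 9 dim mPFC arrays.

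Other probes of the same names were set beside the 90. They come from the same arrays and slides, so they cannot tell brain region from slide and are a description. The 83 names with a lower call hold 145 detected probes that were not called. Of these 96 (66.2%) were below 0, against 53.9% of all 9232 region probes, and 41 (28.3%) had an unadjusted p under 0.05, against 18.7% of all region probes and 15.3% of all probes tested. For the 4 names with higher calls only, 9 of 12 such probes were above 0, against 46.1% of all 9232 region probes. The chr15 name with a call in each direction is counted among the 83. Of the 14 other probes of the 10 regions named first, 10 had the sign of the named probe. An unadjusted p under 0.05 was found for 5, of which 4 had that sign and 1, A_30_P01030352, the opposite one.

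Leaving out single arrays moved the count of 90 by more than 1.5 times in 19 of 26 cases, so the count is not a fixed quantity. It fell to 17 without WT NAc naive replicate 3, to 23 and 24 without DKO NAc naive replicates 3 and 2, to 24 without DKO mPFC R-SDS replicate 2 and to 27 without DKO mPFC naive replicate 3. Values of 29 to 38 came without WT NAc R-SDS replicates 1 (29) and 2 (38), WT mPFC naive replicates 1 (30) and 2 (36), DKO NAc R-SDS replicate 4 (32), DKO mPFC naive replicate 1 (37) and DKO mPFC R-SDS replicate 3 (38). Values of 42 to 58 came without WT mPFC R-SDS replicate 3 (42), DKO NAc R-SDS replicates 3 (44) and 2 (58), DKO mPFC R-SDS replicate 1 (48) and WT NAc naive replicate 2 (53). It rose to 142 without DKO NAc naive replicate 1 and to 166 without WT mPFC R-SDS replicate 2. Without both arrays that stood apart it was 16. The count over all 34773 probes, 265 with all arrays, moved as well. It was 56 without WT NAc naive replicate 3, 62 without DKO NAc naive replicate 3 and 409 without DKO NAc naive replicate 1. Without WT mPFC R-SDS replicate 2 it was 457, and without both arrays that stood apart 61.

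Most tested markers of other cell types had lower values in NAc as well and are given beside these calls. The perivascular macrophage markers Mrc1, Cd163 and Lyve1 were below 0 in NAc minus mPFC in 3 of 3 cases with a median of -2.58, none of them called. Their summed level ran from -1.21 to 3.13 on mPFC and from -4.13 to 0.70 on NAc arrays, and Cd163 was above background on 7 mPFC and 0 NAc arrays. Astrocyte markers were below 0 in 4 of 5 cases (median -1.05), with summed levels of 3.84 to 6.00 in mPFC and 3.46 to 4.91 in NAc. The 4 neuronal markers tested, of 7 listed, were below 0 (median -0.63, summed levels 4.80 to 6.82 in mPFC and 4.79 to 5.87 in NAc). So were the 2 endothelial markers tested, of 5 endothelial and mural markers listed (median -0.74, -1.72 to 0.87 and -2.09 to 0.25). The 1 monocyte marker tested, Ccr2, was at -0.81 (summed levels -5.95 to -0.38 and -6.21 to -2.94). The other listed markers of neurons and vessels missed the detection rule and have no tested difference. Flt1 was above background on 3 mPFC and 4 NAc arrays and Pdgfrb on 1 and 3. The counts were 4 and 2 for Rgs5, 1 and 1 for Syt1, 5 and 0 for Slc17a7 and 3 and 2 for Gad1. Oligodendrocyte markers were below 0 in 2 of 5 cases (median 0.15; 3.54 to 5.06 and 3.60 to 4.27), and the 1 T cell marker tested, Cd3e, was at 0.06 (0.11 to 1.29 and -0.15 to 1.23). The 7 microglial markers were all below 0 with a median of -0.23, and their summed level ran from 9.73 to 11.3 in mPFC and from 9.67 to 10.3 in NAc. None of these markers was called, and their part in the region probes' differences was not tested. In sorted pools, fewer cells of a type and less RNA per cell cannot be told apart.

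Within single groups no region probe passed between NAc and mPFC. The counts were 0 in naive WT (0% of all probes), R-SDS WT (0.00288%), naive DKO (0%) and R-SDS DKO (0.00288%) mice, with limma. At an unadjusted p under 0.05, 573, 730, 905 and 319 region probes remained in that order. Their shares were 6.21%, 7.91%, 9.80% and 3.46%, against 5.36%, 8.25%, 8.34% and 2.80% of all probes. The medians of the 9232 probes lay between -0.08 and -0.04.

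**Figure D4:**
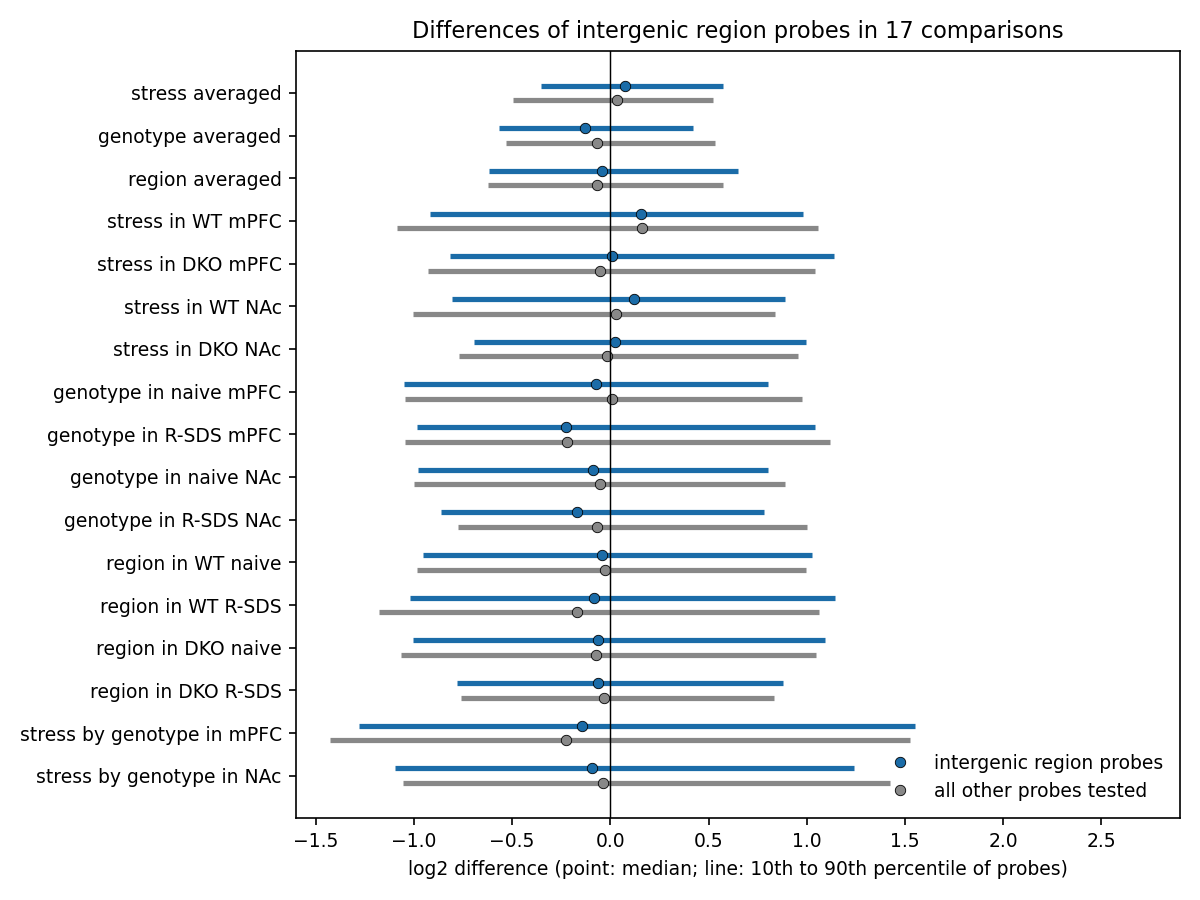
Log2 differences of the 9232 region probes (blue) and of the 25541 other probes tested (grey) in all 17 comparisons; points are medians over probes and lines span the 10th to the 90th percentile. Stress is R-SDS minus naive, genotype DKO minus WT, region NAc minus mPFC, and stress by genotype the DKO minus the WT stress difference. Blue and grey lines overlap over most of their length in each comparison.

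Stress moved no region probe past the threshold. Averaged over genotype and brain region, 0 of 9232 probes passed with limma (0% of all probes; lowest adjusted p 0.130), and 441 (4.78%) lay under an unadjusted p of 0.05, against 5.41% of all probes. The median difference was 0.07, against 0.05 over all probes, and 61.0% of the region probes were above 0, against 56.0% of all probes. The counts were also 0 in WT mPFC (0.00288% of all probes), DKO mPFC (0%), WT NAc (0%) and DKO NAc (0.00575%), with 475, 532, 282 and 367 unadjusted. The corresponding shares were 5.15%, 5.76%, 3.05% and 3.98%, near the 5.76%, 5.44%, 3.18% and 3.40% of all probes. The stress differences of DKO and WT mice were also set against each other, and 0 region probes passed in mPFC and in NAc (0% of all probes in both), with 526 and 263 at an unadjusted p under 0.05, shares of 5.70% and 2.85% against 6.02% and 2.80% of all probes.

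In some single-group comparisons the median over all 34773 probes was itself away from 0, at 0.16 for stress in WT mPFC, -0.22 for genotype in R-SDS mPFC and -0.15 for brain region in stressed WT mice, and differences there are relative to these values. The probes named here for stress are those with the smallest p in each direction among probes detected in all groups compared, and other region probes can have a smaller p. In WT mPFC, A_30_P01028878 (chr9:56913341-56913901, R) read -1.94, -1.53 and -0.06 in naive and 3.10, 2.86 and 0.61 in R-SDS samples. The groups did not overlap, and the difference was 3.37 ± 0.66 (SE; adjusted p = 0.326). A second probe of the same name, A_30_P01018334, differed by 4.66 (adjusted p = 0.848), and the last one was detected on 1 array only. In DKO mPFC the first probe read -2.19, -0.78, -1.87 and -0.52 in naive and -1.27, -0.65 and -0.63 in R-SDS samples, and all 13 NAc values lay between -1.85 and 0.63. Of the 3 values in stressed WT mPFC, 2 thus lay above all other arrays and 1 did not. By the same rule the probe is also named for DKO minus WT (-3.04; adjusted p = 0.364) and for NAc minus mPFC (-3.11; adjusted p = 0.342), which share the same 3 arrays. Within slide 1 alone the stress difference was 4.71, and within slide 2 alone 0.67. Without WT mPFC R-SDS replicate 3 the adjusted p of the stress difference was 0.0435, and with array weights, which count noisy arrays less, 0.0102.

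A_30_P01027751 (chr11:104308622-104310041, R) went the other way in WT mPFC. It read 0.44, 1.60 and 0.91 in naive and -0.61, -1.40 and -1.45 in R-SDS samples, a difference of -2.14 ± 0.59 (adjusted p = 0.721). The 2 other probes of that name, A_30_P01020114 and A_30_P01025380, differed by -4.14 and -3.09. The DKO mPFC values, from -1.67 to -0.39, lay near those of the stressed WT samples in both conditions.

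In DKO mPFC, A_30_P01026284 (chr13:108548345-108679004, R) read -3.66, -2.22, -3.81 and -2.53 in naive and 0.64, 0.92 and -1.69 in R-SDS samples, a difference of 3.01 ± 0.64 (adjusted p = 0.527). Of its 5 other probes 4 had the same sign. A_30_P01023197 (chr7:28588159-28617009, R) differed by -1.69 ± 0.52 there, but by 0.05 within slide 1 and -2.56 within slide 2. In WT NAc, A_30_P01021788 (chr6:122725638-122752828, F) read 0.52, -1.75 and -0.92 in naive and 1.24, 3.22 and 1.75 in R-SDS samples, a difference of 2.79 ± 0.70 (adjusted p = 0.948). A_30_P01024237 (chr1:158979050-159007700, R) differed by -1.99 ± 0.56, and neither of its 2 other tested probes had that sign.

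In DKO NAc, A_30_P01022424 (chr8:71938275-72113375, F) read -1.03, 0.04 and -0.85 in naive and 1.01, 1.16, 1.05 and 1.31 in R-SDS samples. Its stress difference was 1.75 ± 0.39 (adjusted p = 0.698), all 4 other probes of the name had the same sign, and the groups did not overlap. In WT NAc the same probe read 1.87, 0.77 and 0.73 in naive and 0.87, 0.36 and -0.46 in R-SDS samples, so that the DKO minus WT stress difference was 2.62 ± 0.57 (adjusted p = 0.714). A_30_P01024129 (chr6:121036119-121036703, R) differed by -2.30 ± 0.59 with stress in DKO NAc, but by -4.25 within slide 3 and -1.27 within slide 4. In mPFC the probes so named for the DKO minus WT stress difference were A_30_P01022949 (chr8:106619342-106624851, R; 2.55 ± 0.74) and A_30_P01018032 (chr2:157838320-157853495, F; -2.42 ± 0.63).

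Averaged over genotype and brain region, the smallest stress p-values among probes detected in all 8 groups belonged to A_30_P01032431 (chr6:140639450-140662200, F), with a difference of 0.86 ± 0.19 (adjusted p = 0.309), and A_30_P01028447 (chr17:33425193-33449090, F), with -1.54 ± 0.49 (adjusted p = 0.739). The second was 0.19 on scan day 1 alone and -2.70 on scan day 2 alone, and neither of its 2 other probes had its sign.

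Genotype likewise moved no region probe past the threshold. Averaged over brain region and condition, 0 of 9232 probes passed with limma (0.00863% of all probes; lowest adjusted p 0.136), and 744 (8.06%) lay under an unadjusted p of 0.05, against 7.75% of all probes. The median difference, DKO minus WT, was -0.13, against -0.08 over all probes, and 33.8% of the region probes were above 0, against 39.7% of all probes. The counts were 0 in naive mPFC (0.00575%; smallest adjusted p 0.0516), R-SDS mPFC (0.00863%), naive NAc (0.00863%; smallest adjusted p 0.0829) and R-SDS NAc (0.00575%). The unadjusted counts were 509, 560, 359 and 368, shares of 5.51%, 6.07%, 3.89% and 3.99%, against 5.86%, 5.90%, 3.48% and 3.90% of all probes.

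The probes named below are those with the smallest p among probes detected in the groups compared. A_30_P01032549 (chr17:71242333-71273533, F) had the smallest p for a lower level in DKO, -0.81 ± 0.17 (adjusted p = 0.186). It is bright, with WT values of 6.85 to 7.96 in mPFC and 6.89 to 7.39 in NAc. The DKO values were 6.19 to 6.78 in mPFC and 5.68 to 6.95 in NAc, so the genotypes did not overlap in mPFC and overlapped slightly in NAc. Both other tested probes of the name had the same sign. With normexp background correction and quantile normalization its difference was -0.70, with an adjusted p of 0.0336. A_30_P01021183 (chr6:4841700-4847400, F) was on the higher side, 0.77 ± 0.20 (adjusted p = 0.381), with the same sign in all 4 other probes.

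In naive mPFC, A_30_P01021498 (chr3:117935228-118089771, F) read -0.31, 1.22 and 0.59 in WT and -2.91, -3.44, -2.99 and -3.05 in DKO samples. The difference was -3.60 ± 0.80 (adjusted p = 0.294), and both other tested probes had its sign, at -1.74 and -1.11. The stressed WT mPFC samples read -2.39, -1.80 and -3.20, near the naive DKO samples. A_30_P01026198 (chr9:120422400-120433300, R) differed by 3.53 ± 0.84 there. In R-SDS mPFC, A_30_P01023140 (chr8:85609155-85615170, F) differed by 3.64 ± 1.13 (adjusted p = 0.707).

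**Figure D5:**
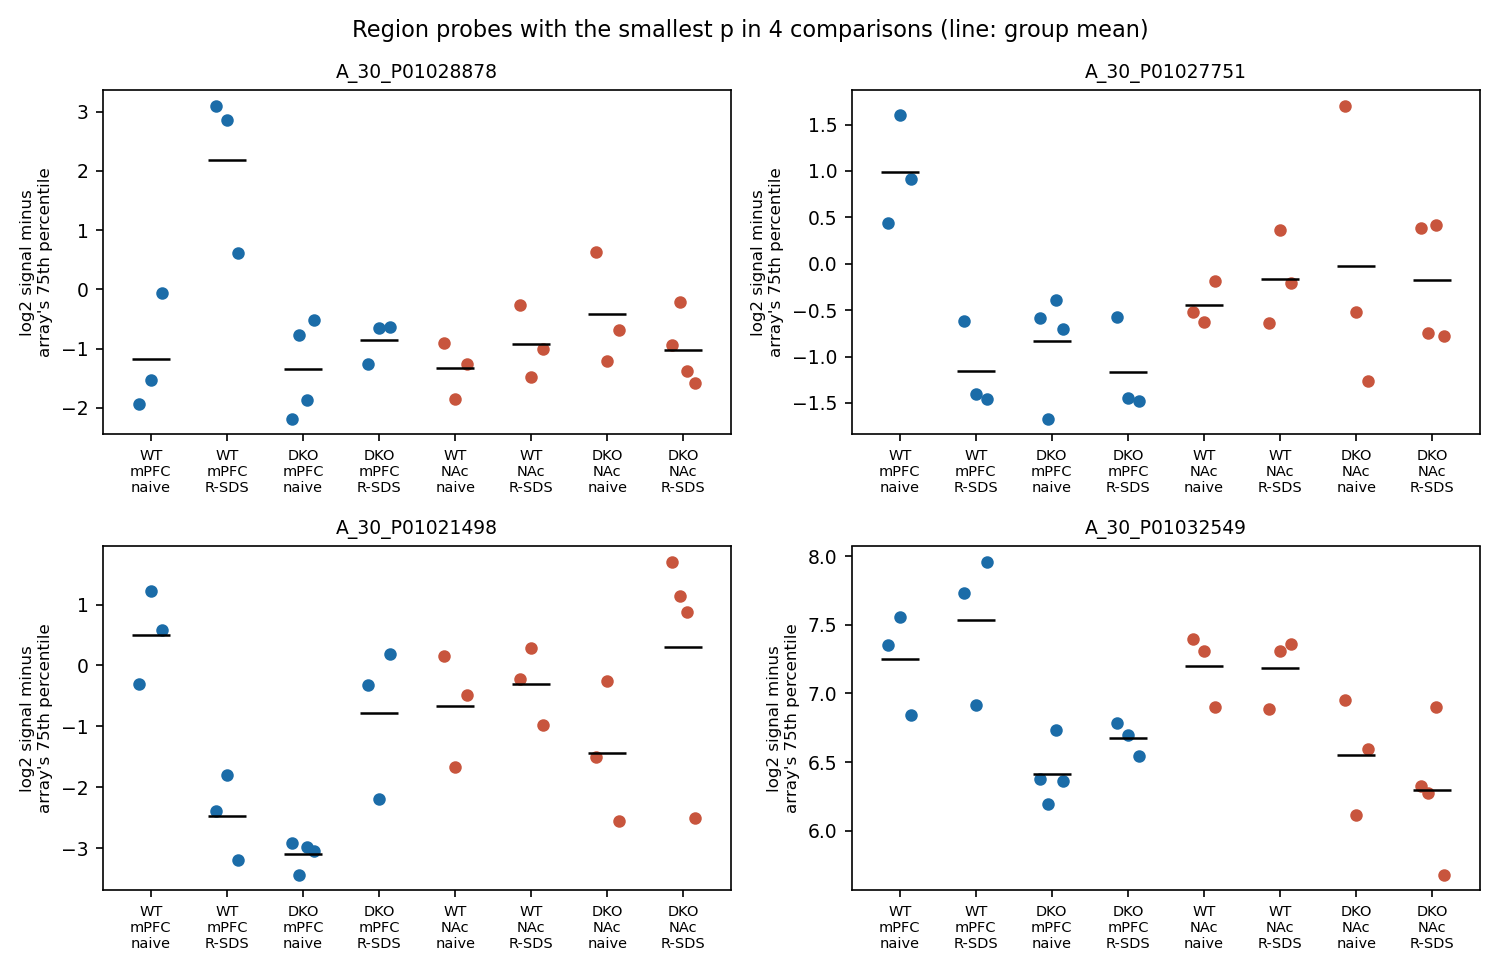
Levels (log2, relative to each array's 75th percentile) of 4 region probes with the smallest p in a stress or genotype comparison among probes detected in the groups compared, by group, with mPFC arrays in blue and NAc arrays in red; black lines are group means. A_30_P01028878 is highest in 2 of the 3 WT mPFC R-SDS arrays, A_30_P01021498 is low in the 4 naive DKO mPFC arrays, and none of the 4 passed the threshold.

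In naive NAc, A_30_P01019286 (chr12:45415565-45423519, R) read 1.22, 2.89 and 0.32 in WT and -3.50, -1.94 and -1.32 in DKO samples, a difference of -3.73 ± 0.89 (adjusted p = 0.616). All 3 other probes of the name had the same sign. A_30_P01024129, named above for stress, differed by 2.24 ± 0.63 (limma, adjusted p = 0.996). Its stress and genotype differences share the 3 naive DKO arrays, which read 1.67, -1.16 and -1.03, so replicate 1 weighs heavily in both. The 1 other tested probe of the name did not have the sign of this genotype difference. In R-SDS NAc, A_30_P01025920 (chr4:136856064-136877219, F) read -0.63, 0.04 and 0.53 in WT and -3.05, -2.77, -2.10 and -3.46 in DKO samples, a difference of -2.83 ± 0.61 (adjusted p = 0.799). Of its 4 other probes, A_30_P01031406 differed by -2.86, while A_30_P01021338, A_30_P01023127 and A_30_P01032409 differed by -0.19, -0.25 and -0.36. The probes of 1 strand of this region thus gave unlike differences. The same probe had, by that rule, the smallest p on the lower side for the DKO minus WT stress difference in NAc, -3.98 ± 0.90. A_30_P01024237 was on the higher side in R-SDS NAc, at 1.67 ± 0.53.

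The single-group comparisons of NAc and mPFC also had probes with large but uncalled differences. In naive WT mice, A_30_P01027018 (chr5:125861675-125880125, F) differed by 2.40 ± 0.66 and A_30_P01030718 (chr14:20893694-20903726, R) by -2.26 ± 0.51. In stressed WT mice, A_30_P01021788 differed by 2.95 ± 0.70. In naive DKO mice, A_30_P01022390 (chr5:23195569-23218551, R) differed by 2.60 ± 0.62 and A_30_P01029366 (chr14:65205076-65219432, R) by -1.48 ± 0.32, both with an adjusted p of 0.231. In stressed DKO mice, A_30_P01027837 (chr4:135896689-135918414, R) differed by 2.58 ± 0.74 and A_30_P01022486 (chr8:119732348-119749198, R) by -2.84 ± 0.76. Of the latter's 7 other tested probes 2 had its sign.

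Across all these uncalled probes, 57 of 76 differences of other detected probes of their names (75%) had the sign of the named probe. These 76 come from 61 distinct probes, some of them counted in more than 1 comparison. An unadjusted p under 0.05 was found for 19, of which 17 had the sign of the named probe. The named probe was chosen for its small p and shares its arrays with the others, so these counts describe the agreement among probes only.

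Long noncoding RNAs with gene names were set beside the region probes. Of 59 listed genes 33 had a probe and 25 met the detection rule, and none passed in the averaged comparisons of stress, genotype or brain region. Their median differences were 0.19, -0.13 and 0.03. Over all probes tested these medians were 0.05, -0.08 and -0.06. A single probe stood for each gene, so the ranking is one of probes and not of transcript amounts. The 5 probes with the highest mean were those of Airn at 2.71, Norad at 2.69, Snhg15 at 2.18, Peg13 at 1.27 and Snhg6 at 0.71. Each was above background on all 26 arrays. The probe listed for Malat1 was dimmer than these 5. Whether any region probe, including the brightest ones, lies in 1 of the listed genes was not looked up. Airn is an imprinted antisense transcript, Norad binds PUMILIO proteins, and Snhg15 and Snhg6 host small nucleolar RNAs. Between NAc and mPFC, Airn differed by 0.60 (adjusted p = 0.135) and Peg13 by 0.56 (adjusted p = 0.357). Neat1, the scaffold of nuclear paraspeckles, differed by -0.15 with brain region and by -0.86 with stress (adjusted p = 0.925).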

How the data were processed

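The deposited scanner files hold spot intensity on a linear scale, background-subtracted by version 11.0.1.1 of Agilent's Feature Extraction, as the submitters' processing notes and, per the file headers, the files give it; the authors' deposited matrix holds log2 values and served as an alternative. Per the labels' protocols, RNA (500 pg) was amplified before Cy3 labelling. Spots flagged as outliers were dropped and the remaining spots of a probe were averaged. Of 55681 probes, 108 with no unflagged spot on at least 1 array were left out. The log2 signals were centred on each array's 75th percentile. All 34773 probes above background on 3 or more arrays of 1 group were fitted together with limma 3.58.1 in R 4.3.3 as 8 group means, with Benjamini-Hochberg adjustment over all of them; the fit was tested on simulated data. The number of arrays limits the precision. Replicates are pools of different mice. Region probes on chromosome X (577) or without a strand letter (13) were not counted as region probes here. Any of them that met the rule stayed among the other probes. Named probes are those past the threshold (at most 10 a comparison, by p), otherwise the smallest p in each direction among probes detected in the groups compared, plus the brightest, longest, shortest, most-probed, both-strand and single-group probes. The probes and lists were chosen with earlier results of these data known. A further microglial marker of the list is not reported here. Alternatives were other background corrections and normalizations, filters, blocks, array weights and left-out arrays.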

Additional observations from a re-analysis of the deposited data

Results flagged for a closer look

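Of 34 sets of 4 arrays looked at (levels of the 15 probes named for NAc against mPFC, the share of region spots above background and the 75th percentile of the signal, in DKO mPFC naive and DKO NAc R-SDS), 2 had an array far from the other 3; chance flags about 1 in 20. Both are DKO mPFC naive arrays and probes higher in NAc. A_30_P01029551 read -1.82 on replicate 2 and -6.12 to -5.78 on the others. A_30_P01022189 read -4.78 on replicate 3 and -5.64 to -5.55 on the others.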

How the results depend on the processing

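For NAc against mPFC, the 90 region probes called became 14 with normexp and quantile normalization, 50 with quantile normalization, 31 with median centring, 28 with no filter on dim probes, 38 with 1 probe per name, 194 with array weights, 198 with scan day as a block, 0 with slide as a random block, 16 without the 2 arrays that stood apart, and 0 on scan day 1 or 2 alone (fewer arrays); the cause was not tested otherwise. The splits of higher and lower calls were 28 and 166 with array weights, 22 and 176 with scan day as a block and 5 and 45 with quantile normalization. Leaving out 1 array gave 17 to 166. The deposited matrix gave 114 and the stricter filter 88. The 265 calls over all 34773 probes moved too. They became 43 with normexp and quantile normalization, 161 with quantile normalization and 102 with median centring. Array weights gave 507, scan day as a block 559 and the deposited matrix 325. With no filter 77 of 55573 probes passed, with 1 probe per name 213 of 25402, and with the stricter filter 272 of 33086. The replicate numbers did not meet the rule for pairing samples, with 0 of 12 comparisons having every pair over 0.1. The r of deviations ran from -0.123 to 0.203 over 36 pairs, and from 0.003 to 0.198 between NAc and mPFC samples. Whether the brain regions are weakly paired cannot be decided from these values. With the replicate block the count was 109, and 1 probe each passed for genotype in naive NAc and brain region in naive WT mice. In the other 16 comparisons, all at 0, 1 probe passed with normexp (genotype averaged; genotype in naive NAc), no filter (stress in WT mPFC), the stricter filter or slide as a fixed block (genotype in naive mPFC), without the 2 arrays that stood apart or on scan day 1 alone (stress averaged) and on scan day 2 alone (genotype averaged). Array weights gave 1 for stress averaged, genotype averaged, stress in WT mPFC and brain region in R-SDS WT mice, and 3 for genotype in R-SDS mPFC. Fitting only the groups compared gave 2 for stress in DKO mPFC. Leaving out 1 array gave 0 to 6 for brain region in R-SDS WT mice, 0 to 4 for genotype averaged, 0 to 3 for genotype in R-SDS mPFC, 0 to 2 for genotype in naive NAc and stress in WT mPFC, 0 to 1 for genotype in naive mPFC, genotype in R-SDS NAc, brain region in naive WT and naive DKO mice, stress in DKO NAc and stress by genotype in NAc, and 0 in the remaining 5. Of 1673 values of named probes under alternatives, 2 changed sign: A_30_P01028447 for stress averaged, 0.19 on scan day 1 alone (adjusted p = 0.941), and A_30_P01023197 for stress in DKO mPFC, 0.05 on slide 1 alone. Dim signals limit the rest: 51 of the 90 calls had fewer than 3 arrays above background in at least 1 group.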
